A study of Mus musculus with 8 samples.

Results

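The genes that encode the proteasome were followed through 8 RNA-seq libraries of mouse liver and epididymal white adipose tissue (eWAT). Members were all genes in the count table whose symbol starts with Psma, Psmb, Psmc, Psmd, Psme, Psmf or Psmg and a digit, which gave 50 of 19348 genes. They comprised 7 core alpha genes and the testis form Psma8, 3 constitutive catalytic and 4 structural core beta genes, the 3 immunoproteasome genes, the thymoproteasome gene Psmb11, 6 ATPases and 3 other subunits of the base, 8 lid genes, 4 activators, 1 inhibitor and 7 assembly chaperones. The symbol rule also took in 2 genes of another kind. Psmc3ip encodes a protein of meiotic recombination that binds an ATPase of the base and is no proteasome subunit, and Psme2b is a retrogene copy of Psme2.

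The proteasome degrades proteins that carry ubiquitin chains. Its barrel-shaped core is made of stacked rings of alpha and beta subunits, with the cutting sites of Psmb5, Psmb6 and Psmb7 inside, and a regulatory cap (base and lid) recognizes, unfolds and feeds in the substrate. Interferon and immune cells bring in Psmb8, Psmb9 and Psmb10, which take the places of Psmb5, Psmb6 and Psmb7 in newly made cores, and the resulting immunoproteasome favours peptides that fit class I antigen presentation. In fat the proteasome has been tied to adipocyte differentiation and to the stress response of thermogenic fat, and in liver to turnover of metabolic enzymes.

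The mice were male, on the C57BL/6 strain, 12 weeks old, fed a normal diet and fasted for 16 h. Each tissue had 2 libraries labelled Crtc1-/- and 2 labelled Crtc1+/+, and the study describes the Crtc1-/- line as made with CRISPR/Cas9 guides to exons 2 and 4 of Crtc1, a coactivator of CREB. Controls of both tissues carried both wild-type alleles, and nothing in the sources used here says which liver and eWAT libraries came from the same mouse. Total counts lay between 16560085 and 19721481 per library, and the 50 members took 0.336% to 0.473% of them.

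The targeted gene, Crtc1, had no lower count under the Crtc1-/- label. In eWAT its level in CPM (counts scaled to library size, within the tissue) was 58.5 and 33.6 in the libraries labelled Crtc1-/- and 32.6 and 33.7 in those labelled Crtc1+/+, and in liver 22.1 and 18.0 against 11.7 and 9.86. The log2 fold change was 0.48 ± 0.37 (SE) in eWAT with an adjusted p of 0.396 and 0.89 ± 0.27 in liver with an adjusted p of 0.184 (edgeR quasi-likelihood test, Benjamini-Hochberg adjustment). A count over the whole gene also holds reads from exons outside the edited part, so it is no check of the deletion. For the line, the paper reports complete knockout by genotyping and Western blot, and PCR of the mRNA with primers for the missing exons. The libraries are called KO-labelled (Crtc1-/-) and WT-labelled (Crtc1+/+) below.

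The eWAT libraries differed in the tissue they held. All 16 epididymis markers were called lower in KO-labelled eWAT, with a summed level of 33.5 and 14.9 CPM against 68407 and 82660 CPM in WT-labelled eWAT, and 6 and 5 of them were at 0 in the KO-labelled libraries. The 7 adipocyte markers summed to 37223 and 20158 CPM against 1755 and 2875 CPM, with none at 0 in either group. Replicate 2 of KO-labelled eWAT held 118579 CPM of the 8 hepatocyte markers, against 1196 to 5491 CPM in the other 3 eWAT libraries. In a piece of bulk tissue, fewer cells of a type and less RNA per cell cannot be told apart.

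The constitutive core was expressed at a high level in all 8 libraries. The median over its 14 genes was 127 to 161 FPKM (fragments scaled to transcript length and library size, a level per length) in eWAT and 110 to 150 FPKM in liver. Within a library the highest of the 14 was 3.56 to 12.3 times the lowest, although the assembled core holds all 14 in equal number. Psma3 was the lowest of the 14 in each library, at 27.7 to 71.4 FPKM, and Psmb3 the highest in 7 libraries, with Psma7 the highest in replicate 2 of WT-labelled eWAT. The constitutive catalytic genes differed little from each other, since the highest was always Psmb6 and the lowest always Psmb7, between 1.18 and 2.79 times apart.

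The ATPase, lid, chaperone and inhibitor genes had lower medians than the core, while some cap and activator genes reached or passed the core median. The class median was 64.0 to 91.6 FPKM over both tissues for the 6 ATPases of the base, the motors that unfold substrates. The 8 lid genes, which include the deubiquitinase Psmd14, had a median of 34.4 to 54.4 FPKM, and the 7 assembly chaperones, which are not part of the finished particle, one of 13.8 to 22.3 FPKM. Psmf1, which encodes the inhibitor PI31, lay between 15.7 and 27.1 FPKM. The 4 activators had a median of 64.1 to 132 FPKM, with Psme1 at 136 to 345 FPKM and so above the core median in each library. The ubiquitin receptor Psmd4 was at 113 to 223 FPKM and the lid gene Psmd8 at 83.5 to 222 FPKM.

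**Figure D1:**
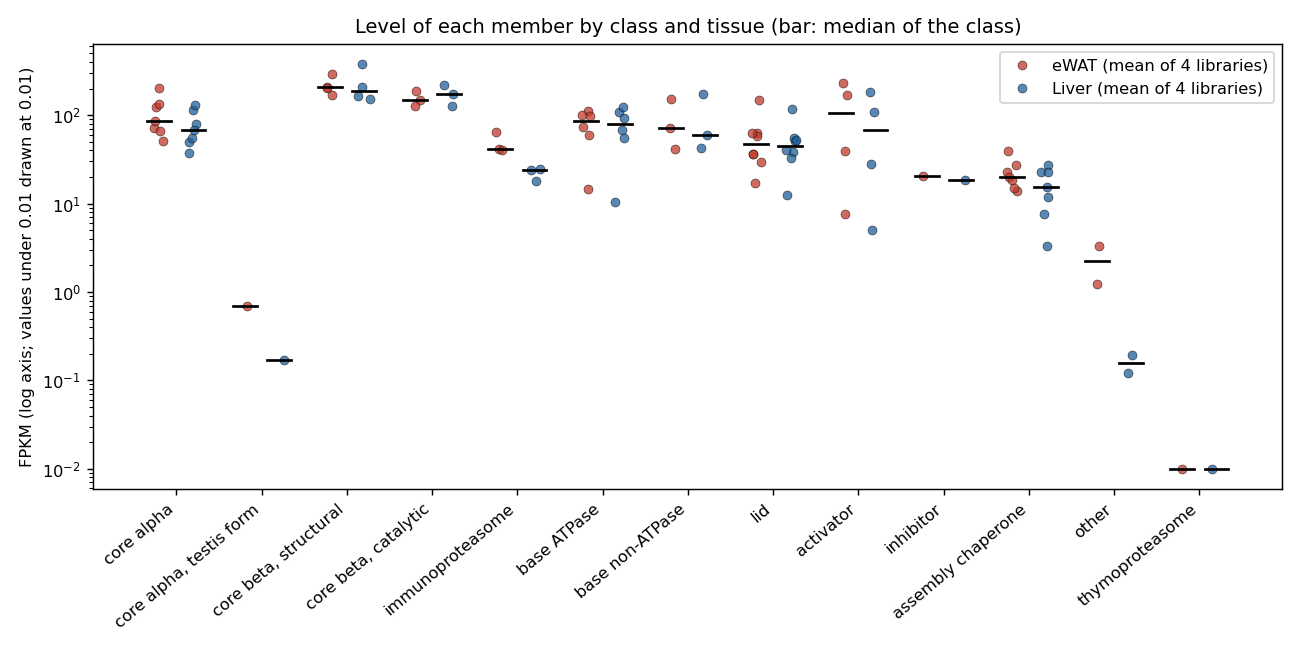
Level of each of the 50 members by class, in FPKM on a log axis, as the mean of the 4 eWAT libraries (red) and of the 4 liver libraries (blue), with the class median as a bar. The core, base and lid genes sit near or above 10 FPKM in both tissues, while Psma8, Psmb11, Psmc3ip and Psme2b sit below 5 FPKM.

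Members tied to germ cells or thymus had low counts. Psmb11, the beta subunit of thymic epithelium, had 0 counts in 7 libraries and 1 count in WT-labelled liver replicate 2, below the 3 counts that a count of 0 allows for counting error alone. Psma8, which replaces Psma7 in the testis, had 17 and 3 counts in KO-labelled eWAT, 56 and 2 in WT-labelled eWAT and 1 to 10 in liver. Its highest value came from replicate 1 of WT-labelled eWAT, the library with the most testis and sperm marker RNA (1049 CPM over 6 markers, against 523 CPM in replicate 2 and 15.0 and 106 CPM in KO-labelled eWAT).

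Psmc3ip had 31 and 4 counts in KO-labelled eWAT and 110 and 51 in WT-labelled eWAT, so the groups did not overlap, and 1 to 7 counts in liver. The difference was not called (log2 fold change -1.98 ± 1.02, adjusted p = 0.235, edgeR), and the part of germ cell RNA in it was not tested. Psme2b had estimated counts of 23.3 and 38.4 against 15.3 and 5.77 in eWAT, and of 0 to 4.51 in liver. Counts of Psme2, Psme2b and Psmf1 were not whole numbers in 6 of 8 libraries each, as estimated counts are where a read matches several places, so their levels are uncertain.

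The immunoproteasome genes stood apart in KO-labelled eWAT. Psmb8 and Psmb9 (chr17:34198195-34201454 and chr17:34182030-34187330, GRCm38.p6) lie in the MHC region beside the peptide transporter genes Tap1 and Tap2. Psmb10 lies apart from them, at chr8:105935728-105938392. The 250 bases before the RefSeq start of each, and of constitutive Psmb5, are shown because these genes form the catalytic pairs, and that of Psmd10 because it was the called member with the opposite sign. Sequences are from RefSeq promoters of GRCm38.p6, 5′ to 3′ on the gene's strand, with capitals for TGACNNNGC, a form of the site bound by NFE2L1 and NFE2L2, and for the CCAAT box, on either strand. Psmb5 is at chr14:54617996-54618245 (minus strand), Psmb8 at chr17:34197945-34198194 (plus), Psmb9 at chr17:34187331-34187580 (minus), Psmb10 at chr8:105938393-105938642 (minus) and Psmd10 at chrX:140956712-140956961 (minus). Psmb9 and Tap1 point away from each other with 225 bases between them, so the first 25 bases of the Psmb9 window as printed lie within Tap1.
Psmb5: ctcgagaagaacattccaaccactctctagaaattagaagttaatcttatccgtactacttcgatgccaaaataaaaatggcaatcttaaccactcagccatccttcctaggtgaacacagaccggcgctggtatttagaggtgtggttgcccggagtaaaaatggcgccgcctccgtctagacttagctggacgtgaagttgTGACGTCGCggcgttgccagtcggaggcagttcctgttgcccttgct
Psmb8: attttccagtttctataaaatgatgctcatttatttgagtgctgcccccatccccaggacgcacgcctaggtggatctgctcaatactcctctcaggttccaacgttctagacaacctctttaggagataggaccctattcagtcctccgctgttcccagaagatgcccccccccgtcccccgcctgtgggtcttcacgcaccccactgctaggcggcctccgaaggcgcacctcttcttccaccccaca
Psmb9: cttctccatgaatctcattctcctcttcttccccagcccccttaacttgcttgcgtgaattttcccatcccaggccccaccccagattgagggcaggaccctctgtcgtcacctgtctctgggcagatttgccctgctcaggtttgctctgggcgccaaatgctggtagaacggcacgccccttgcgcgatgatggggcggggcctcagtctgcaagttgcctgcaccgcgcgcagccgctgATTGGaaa
Psmb10: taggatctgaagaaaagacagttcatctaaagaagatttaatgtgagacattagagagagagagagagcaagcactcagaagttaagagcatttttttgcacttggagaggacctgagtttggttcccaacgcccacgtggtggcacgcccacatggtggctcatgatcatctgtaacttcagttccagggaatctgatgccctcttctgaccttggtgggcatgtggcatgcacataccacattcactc
Psmd10: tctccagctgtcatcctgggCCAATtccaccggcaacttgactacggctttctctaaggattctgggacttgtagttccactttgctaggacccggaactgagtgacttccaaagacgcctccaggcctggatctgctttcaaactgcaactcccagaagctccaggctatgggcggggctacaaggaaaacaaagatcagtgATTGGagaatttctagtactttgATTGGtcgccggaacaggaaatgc

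Psmb5 held TGACGTCGC at -47, counted from -1 at the last base before the start. The windows of Psmb8, Psmb9 and Psmb10 held no TGACNNNGC, Psmb9 held 1 CCAAT box (at -8) and Psmd10 held 3 (at -230, -47 and -24). Over the 42 members with a promoter entry, 5 held TGACNNNGC (11.9%, namely Psmb5, Psmb6, Psmc6, Psmd9 and Psmd12) against 10.1% of 27025 promoters of the same length. A CCAAT box was found in 15 of 42 (35.7%) against 34.5%, and TGACGTCA, the full site of CREB, in 0 of 42 against 1.62%. The CCAAT and TGACGTCA searches were added after the data were seen.

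Psmb8, which replaces Psmb5, was at 162 and 79.5 CPM in KO-labelled eWAT and at 30.3 and 16.3 CPM in WT-labelled eWAT. Psmb9, which replaces Psmb6, was at 64.6 and 36.7 against 13.6 and 7.26 CPM. Psmb10, which replaces Psmb7, was at 98.2 and 65.1 against 22.2 and 12.8 CPM. The groups did not overlap for any of the 3, as for 66.6% of all genes, and replicate 1 was the higher library within each genotype.

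The test called 1 of the 3. Psmb10 rose 4.66-fold in KO-labelled eWAT (log2 fold change 2.22 ± 0.42, adjusted p = 0.0377, edgeR). Psmb8 had a larger fold with a wider error (log2 fold change 2.37 ± 0.52, adjusted p = 0.0507), as did Psmb9 (2.28 ± 0.50, adjusted p = 0.0505). DESeq2 called all 3, with adjusted p of 0.000154 for Psmb8, 0.000234 for Psmb9 and 2.65e-05 for Psmb10, while limma on log2(FPKM + 1) called none of them. Psmb10 lost its call with limma at either pseudocount, with upper-quartile scaling (adjusted p = 0.0527), library-size scaling (0.0593) and the replicate block (0.0543), and without either library of WT-labelled eWAT (0.151 without replicate 1 and 0.277 without replicate 2, with the lone library assumed to vary like the other group).

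None of their constitutive counterparts was called. Psmb5 was at 110 and 135 CPM in KO-labelled eWAT against 110 and 82.0 CPM, with log2 fold change 0.35 ± 0.30 and adjusted p = 0.439. Psmb6 was at 166 and 234 against 169 and 116 CPM (0.49 ± 0.36, adjusted p = 0.367) and Psmb7 at 115 and 113 against 100 and 87.4 CPM (0.28 ± 0.26, adjusted p = 0.470). The signs for Psmb5 and Psmb7 turned negative on the limma scale, so no direction is given for them.

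**Figure D2:**
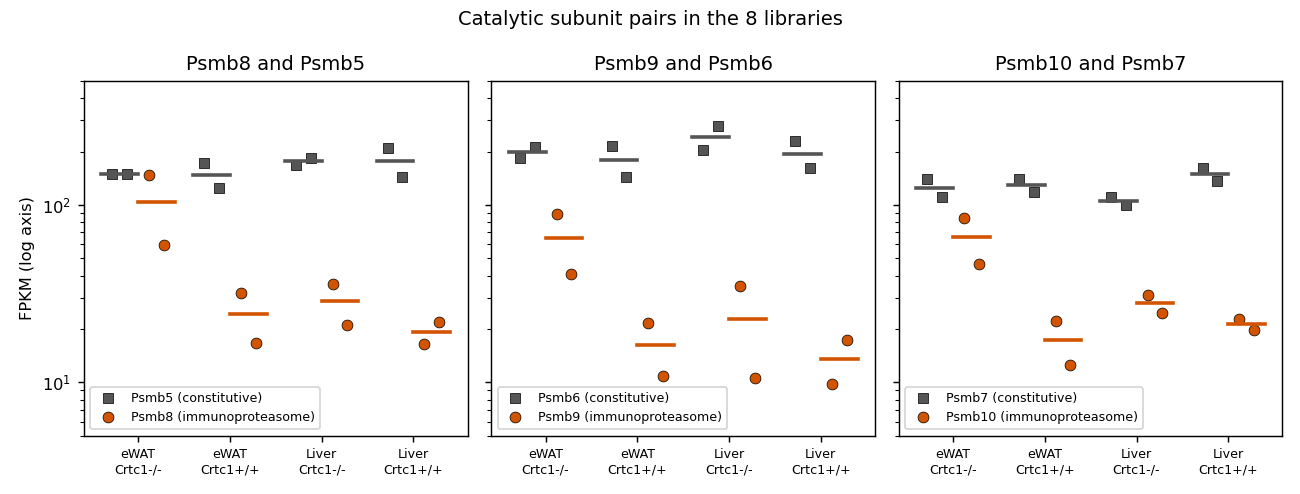
FPKM on a log axis of each immunoproteasome gene (orange circles) and the constitutive gene it replaces (grey squares), by group, with 1 symbol per library and a bar for the mean of 2 libraries. The constitutive genes stay between 100.5 and 280.2 FPKM in all groups, while the immunoproteasome genes are highest in KO-labelled eWAT, where Psmb8 of replicate 1 reaches 148 FPKM, the level of Psmb5 there.

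A share within each library does not depend on scaling between libraries. Psmb8, Psmb9 and Psmb10 made up 40.5% and 23.7% of the FPKM of the 6 catalytic genes in KO-labelled eWAT, and 12.6% and 9.36% in WT-labelled eWAT. That is 32.1% ± 11.8 (SD, n = 2) against 10.96% ± 2.26 (n = 2), a difference of 21.2 percentage points that ranged from 12.8 to 29.6 when any 1 of the 4 libraries was left out. Psmb8 was at 99.5% and 39.8% of Psmb5 in the first group and at 18.6% and 13.3% in the second. The groups did not overlap, but 2 libraries against 2 cannot give a two-sided exact permutation p below 0.333.

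In liver the same share was 17.4% and 9.10% under the KO label and 7.57% and 11.8% under the WT label. These overlapped, and the difference of 3.58 percentage points turned to -0.577 without replicate 1 of KO-labelled liver. Psmb9 showed the widest spread, at 24.4 and 7.82 CPM against 7.09 and 12.4 CPM (log2 fold change 0.73 ± 0.49, adjusted p = 0.455). Psmb8 was at 38.6 and 22.4 against 17.8 and 24.0 CPM (0.54 ± 0.32, adjusted p = 0.398), and Psmb10 at 35.0 and 27.5 against 26.2 and 22.9 CPM (0.35 ± 0.26, adjusted p = 0.494).

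Markers of cells rich in immunoproteasome moved with it in part. The 7 macrophage markers summed to 1440 and 709 CPM in KO-labelled eWAT and to 337 and 173 CPM in WT-labelled eWAT, with none at 0, 7 of 7 higher and 2 called. The 5 endothelial markers summed to 3278 and 2166 against 208 and 223 CPM, with 5 of 5 called. The 8 lymphocyte markers summed to 38.9 and 12.1 against 97.2 and 3.73 CPM, with 2 at 0 in replicate 2 of WT-labelled eWAT, and none of the 7 tested was called. Replicate 1 had more macrophage RNA than replicate 2 in each genotype, as it had more Psmb8, Psmb9 and Psmb10, and the part of these cells in the result was not tested. Hepatocyte markers were at 3565 CPM in replicate 1 of KO-labelled eWAT and at 118579 CPM in replicate 2. Without replicate 2 the adjusted p was 0.0159 for Psmb8, 0.0261 for Psmb9 and 0.0221 for Psmb10, in a fit with a lone KO-labelled library, and the part of hepatocyte RNA in the result was not tested.

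**Figure D3:**
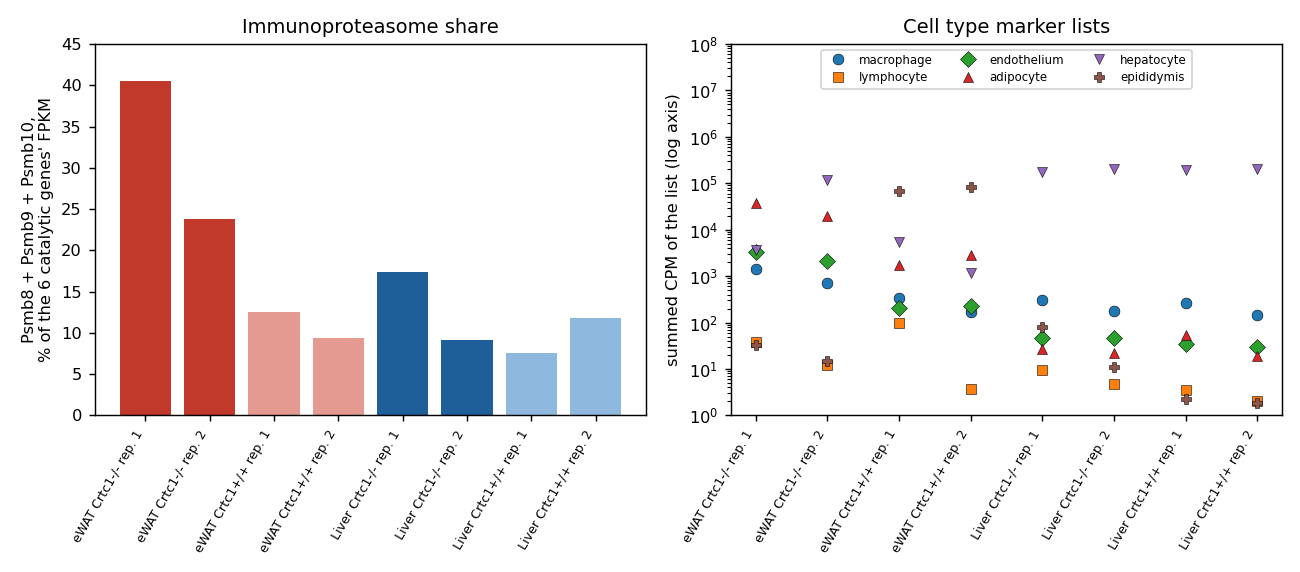
Left, Psmb8, Psmb9 and Psmb10 as a percent of the FPKM of the 6 catalytic genes, 1 bar per library; right, summed CPM of 6 cell type marker lists in the same libraries on a log axis, scaled within each tissue. The bars of KO-labelled eWAT (40.5% and 23.7%) exceed all others, and the same libraries are highest for macrophage, endothelial and adipocyte markers and low for epididymis markers.

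Several genes that handle the peptides after the proteasome rose in eWAT. Of 11 class I antigen presentation genes tested, 4 were called higher and 0 lower, where 6.65% of all genes were called higher, with a median log2 fold change of 1.86 against -0.05 over all genes. Tap2, a subunit of the transporter that carries peptides into the endoplasmic reticulum, was at 161 and 104 CPM against 31.6 and 21.4 (log2 fold change 2.32 ± 0.38, adjusted p = 0.0292). Its partner Tap1 was at 163 and 88.2 against 32.0 and 23.7 CPM (2.17 ± 0.42, adjusted p = 0.0386). Irf1, a transcription factor of interferon-responsive genes, was at 117 and 90.6 against 32.4 and 24.7 CPM (1.86 ± 0.31, adjusted p = 0.0299). H2-D1, a class I heavy chain, was at 4486 and 2686 against 644 and 470 CPM (2.69 ± 0.54, adjusted p = 0.0419), with the caution that class I genes resemble each other in sequence. All 4 were highest in replicate 1 of KO-labelled eWAT, and the groups did not overlap, as for 66.6% of all genes. None of the 4 kept its call without either library of WT-labelled eWAT (adjusted p 0.152 to 0.373), on the limma scale or with the replicate block, and Tap2 alone kept it under both other scalings.

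In liver 0 of the same 11 genes were called, with a median of 0.04 against 0.00 over all genes. With 0.0854% of all genes called in liver, 0 of 11 sets no contrast with eWAT. By edgeR 0 of the 11 reached an unadjusted p under 0.05, against 17.3% of all genes in liver. The chaperones Pdia3 and Calr, which help load class I but serve all glycoproteins, had negative fold changes in eWAT (-2.19 ± 0.48 with adjusted p = 0.0507 and -1.84 ± 0.52 with adjusted p = 0.0833) and so did not follow the other members of the list.

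Over all members, the count of calls in eWAT depended on the tool. Of 49 tested, 1 was higher and 1 lower at an adjusted p under 0.05, against 12.2% of all 15391 genes tested, so 2 of 49 is below the background. DESeq2 called 9 of 49, of which 8 were higher (Psmb8, Psmb9, Psmb10, Psmd2, Psmd4, Psmd8, Psmd13 and Psme1) and 1 lower (Psmd10), against 30.0% of all genes called and 15.3% called higher by that tool. By the rule of the study's methods (a log2 fold change beyond 1 with an unadjusted p under 0.01) 4 of 49 passed, namely Psmb8, Psmb9, Psmb10 and Psmd10, against 15.9% of all genes. An unadjusted p under 0.05 was reached by 8 of 49 members against 33.3% of all genes, 7 of them higher against 16.2%. The 2 groups of libraries did not overlap for 34 of 49 members, near the 66.6% of all genes. The median log2 fold change of the members was 0.28, but it was -0.11 on the limma scale and -0.03 with library-size scaling, so no direction is given for the members as a whole. Psmb11 was the member not tested.

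By class, the core and cap genes showed small differences on both sides of 0 in eWAT. The 7 core alpha genes had a median log2 fold change of -0.19 (from -0.49 for Psma3 to 0.46 for Psma6), and none reached an unadjusted p under 0.05. The 4 structural beta genes ranged from 0.18 for Psmb2 to 0.61 for Psmb3, and the 6 ATPases from -0.77 for Psmc6 to 0.51 for Psmc4. Lid genes ranged most widely, from -0.82 for Psmd14 to 1.06 for Psmd8.

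Psmd8, a lid subunit, was at 309 and 260 CPM in KO-labelled eWAT against 148 and 125 CPM (log2 fold change 1.06 ± 0.30, adjusted p = 0.0849). The groups did not overlap, and its fold change was the fifth by size among the members with an unadjusted p under 0.05. The remaining members with an unadjusted p under 0.05 were the ubiquitin receptor Psmd4 (0.98 ± 0.30), the lid gene Psmd13 (0.69 ± 0.26) and the activator Psme1 (0.97 ± 0.37), with adjusted p of 0.0947, 0.141 and 0.143.

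The clearest fall was that of Psmd10, which encodes gankyrin, a chaperone that helps assemble the base and that is not part of the finished proteasome. The gene lies at chrX:140948425-140956711. It was at 13.6 and 10.5 CPM in KO-labelled eWAT and at 38.8 and 49.1 CPM in WT-labelled eWAT. The groups did not overlap and the log2 fold change was -1.86 ± 0.34 (adjusted p = 0.0355). Psmd10 was called by DESeq2, by limma at both pseudocounts and under each scaling, but not without replicate 2 of KO-labelled eWAT (adjusted p = 0.075) nor with the replicate block (0.0682), nor without either library of WT-labelled eWAT (0.159 without replicate 1 and 0.276 without replicate 2). The libraries with the higher Psmd10 were those with 68407 and 82660 CPM of epididymis markers, and the part of that tissue in the result was not tested.

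Other assembly chaperones did not share this fall. The 6 others ranged from -0.16 for Psmg2 to 0.91 for Psmg3, and none reached an unadjusted p under 0.05. Psmd5 and Psmd9, which act on the base as Psmd10 does, had log2 fold changes of -0.02 and 0.73.

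The activators, which open the core without the ubiquitin-dependent cap, were not called in eWAT by edgeR, while DESeq2 called Psme1 higher (adjusted p = 0.0472). Psme1 and Psme2 form the activator induced by interferon together with the immunoproteasome. Psme1 was at 292 and 227 CPM in KO-labelled eWAT and at 162 and 102 CPM in WT-labelled eWAT, and Psme2 at 168 and 142 against 116 and 92.4 CPM (log2 fold change 0.58 ± 0.29, adjusted p = 0.227). The nuclear activator Psme3 was at 108 and 109 against 81.0 and 90.3 CPM (0.34 ± 0.25, adjusted p = 0.378). Psme4, an activator linked to histone degradation in germ cells, was at 33.2 and 35.8 against 43.6 and 71.1 CPM (-0.73 ± 0.35, adjusted p = 0.205). The groups did not overlap for these 4 genes, which was so for 66.6% of all genes. Those of the inhibitor gene Psmf1 did overlap (57.6 and 65.7 against 69.6 and 49.5 CPM). Its log2 fold change was 0.05 ± 0.30 (adjusted p = 0.920), with a sign that turned under 8 alternatives.

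**Figure D4:**
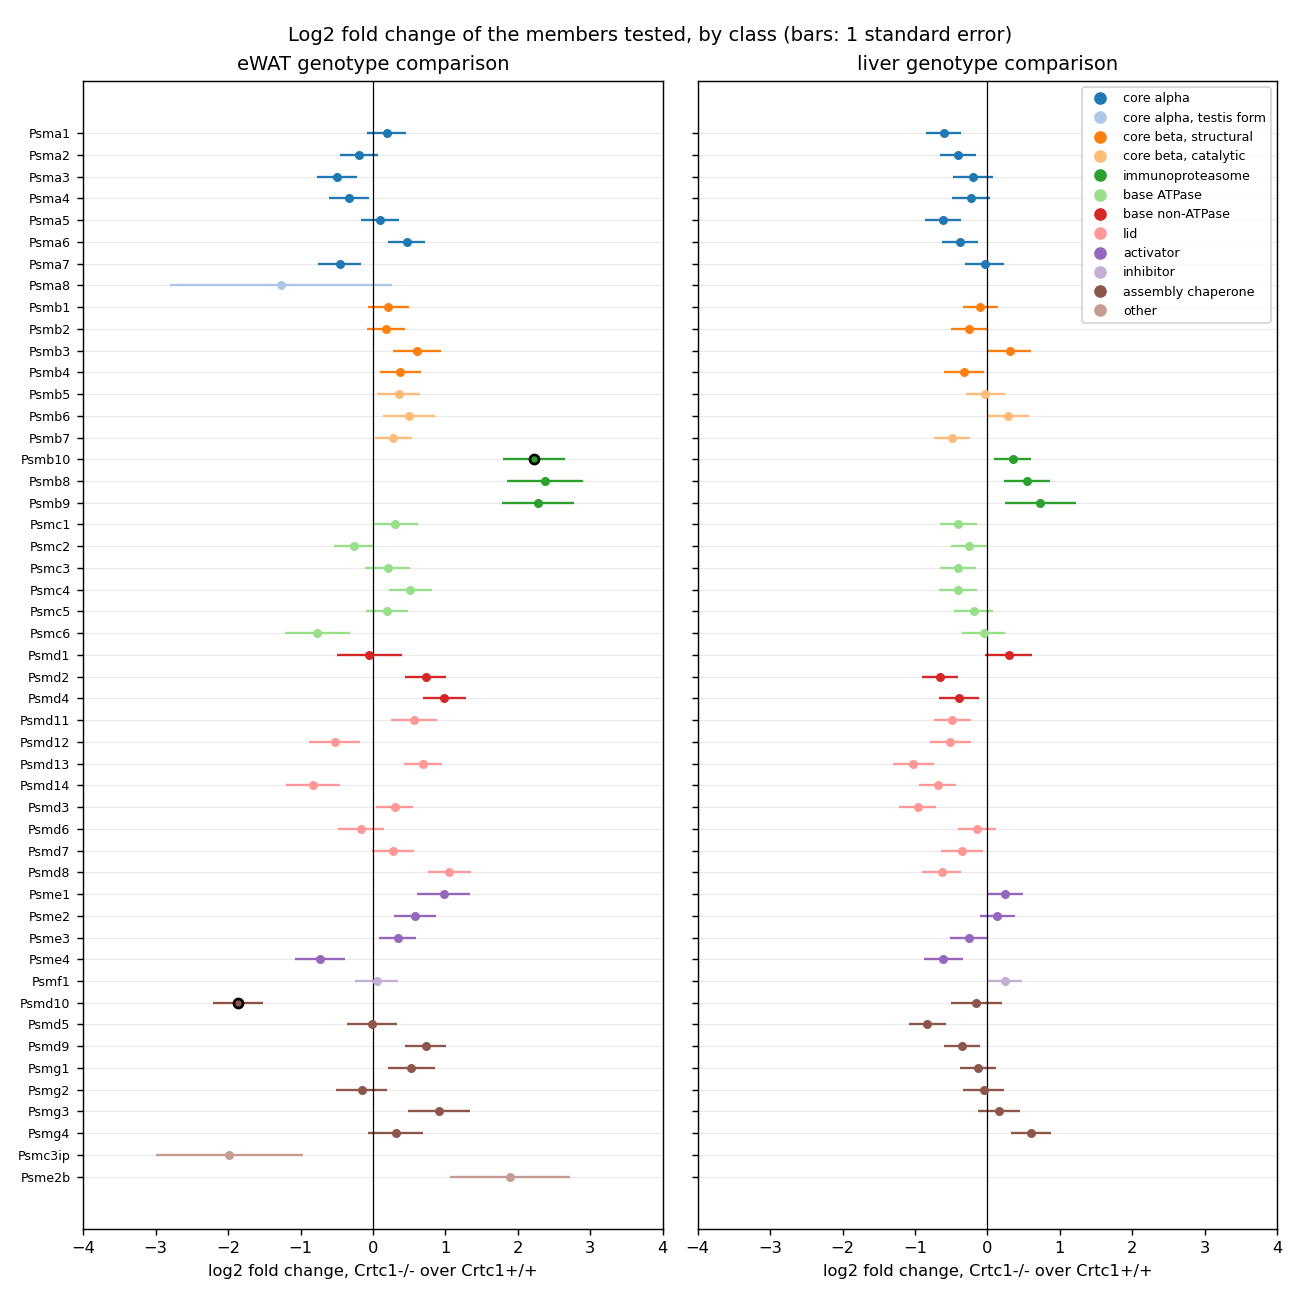
Log2 fold change of Crtc1-/- over Crtc1+/+ labels for 49 members in eWAT (left) and 46 in liver (right), coloured by class, with bars of 1 standard error and black rings for an adjusted p under 0.05. In eWAT the 3 immunoproteasome genes lie above 2 and Psmd10 near -1.86, and in liver 35 of 46 points lie below 0 with no ring.

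The genes around the proteasome showed few calls in eWAT. Among 16 ubiquitin receptors, shuttles, deubiquitinases and assembly genes outside the symbol rule, 0 were called, with 1 higher and 3 lower at an unadjusted p under 0.05 (edgeR). The 5 ubiquitin and E1 genes and the 5 genes of transcription factors and their processing had 0 called, with 0 and 1 at that unadjusted p. Over all genes in eWAT, 12.2% were called and 33.3% reached that unadjusted p. Nfe2l1, the factor that restores proteasome genes when proteasome activity falls short, was at 414 and 379 CPM in KO-labelled eWAT and at 169 and 203 CPM in WT-labelled eWAT. Its groups did not overlap, as for 66.6% of all genes, with a log2 fold change of 1.10 ± 0.31 and an adjusted p of 0.0834. Nfe2l1 was thus not called, and it had the highest fold change of its list of 5. In that list 3 of 5 genes were lower, with a median of -0.04.

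Liver gave no called member. Of 46 tested, 0 passed an adjusted p under 0.05, against 0.0854% of 11707 genes, while DESeq2 called 2 (Psmd3 and Psmd13, both lower). By the study's fold rule 1 passed, Psmd13, against 4.27% of all genes. An unadjusted p under 0.05 was reached by 8 of 46 members (17.4%) against 17.3% of all genes. All 8 were lower in KO-labelled liver, where the background of lower genes was 7.6%. The 2 groups of libraries did not overlap for 28 of 46 members, against 52.1% of all genes. Psma8, Psmb11, Psmc3ip and Psme2b were too low to be tested.

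More members had lower than higher values in KO-labelled liver. The fitted log2 fold change was below 0 for 35 of 46 members (76.1%) against 49.7% of all genes, and the members' median was -0.25 against 0.00. The median lay between -0.40 and -0.15 under every alternative tried. All 7 core alpha genes, all 6 ATPases and all 8 lid genes were on the lower side, with class medians of -0.38, -0.33 and -0.57, whereas the 3 immunoproteasome genes were on the higher side. These are small differences, and members are not independent replicates of the label.

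The largest were in the cap. Psmd13, a lid subunit, was at 57.7 and 38.2 CPM in KO-labelled liver and at 102 and 92.7 CPM in WT-labelled liver (log2 fold change -1.02 ± 0.28, adjusted p = 0.162). Psmd3, also of the lid, was at 80.6 and 71.6 against 161 and 135 CPM (-0.96 ± 0.25, adjusted p = 0.155). For both, the groups did not overlap, as for 52.1% of all genes in liver.

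Psmd5, a chaperone of base assembly, was at 14.5 and 17.0 against 29.5 and 26.4 CPM (-0.83 ± 0.25, adjusted p = 0.187). Psmd14, the deubiquitinase that strips ubiquitin chains from substrates, was at 13.2 and 13.9 against 19.9 and 23.6 CPM (-0.69 ± 0.26, adjusted p = 0.241). Psmd2, a scaffold and ubiquitin receptor of the base, was at 125 and 137 against 213 and 200 CPM (-0.65 ± 0.25, adjusted p = 0.241). Again no library of one label reached into the range of the other, as for 52.1% of all genes in liver.

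Without replicate 1 of KO-labelled liver, 3 members were called lower, Psmd3, Psmd13 and Psme4, and without any other liver library 0 were called. The constitutive catalytic genes had log2 fold changes of -0.03 ± 0.27 for Psmb5, 0.28 ± 0.29 for Psmb6 and -0.49 ± 0.25 for Psmb7, with adjusted p of 0.966, 0.631 and 0.339. The activators and Psmf1 lay between -0.61 ± 0.27 for Psme4 and 0.24 ± 0.25 for Psme1, and none was called.

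The genes around the proteasome were not called in liver either. Of the 16 receptors, shuttles, deubiquitinases and assembly genes, 0 were called, where 0.0854% of all genes were. At an unadjusted p under 0.05 (edgeR) 6 of the 16 were lower and 0 higher, where 7.6% of all genes were lower and 17.3% passed in either direction, and the median was -0.39. Ddi2, the protease that activates NFE2L1, was at 13.5 and 6.01 CPM in KO-labelled liver against 40.6 and 47.7 CPM (log2 fold change -2.18 ± 0.37, adjusted p = 0.0689). Ubb, a polyubiquitin gene, had 0.98 ± 0.25 with an adjusted p of 0.149. Ddi2 and Ubb were named here after their values were seen.

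**Figure D5:**
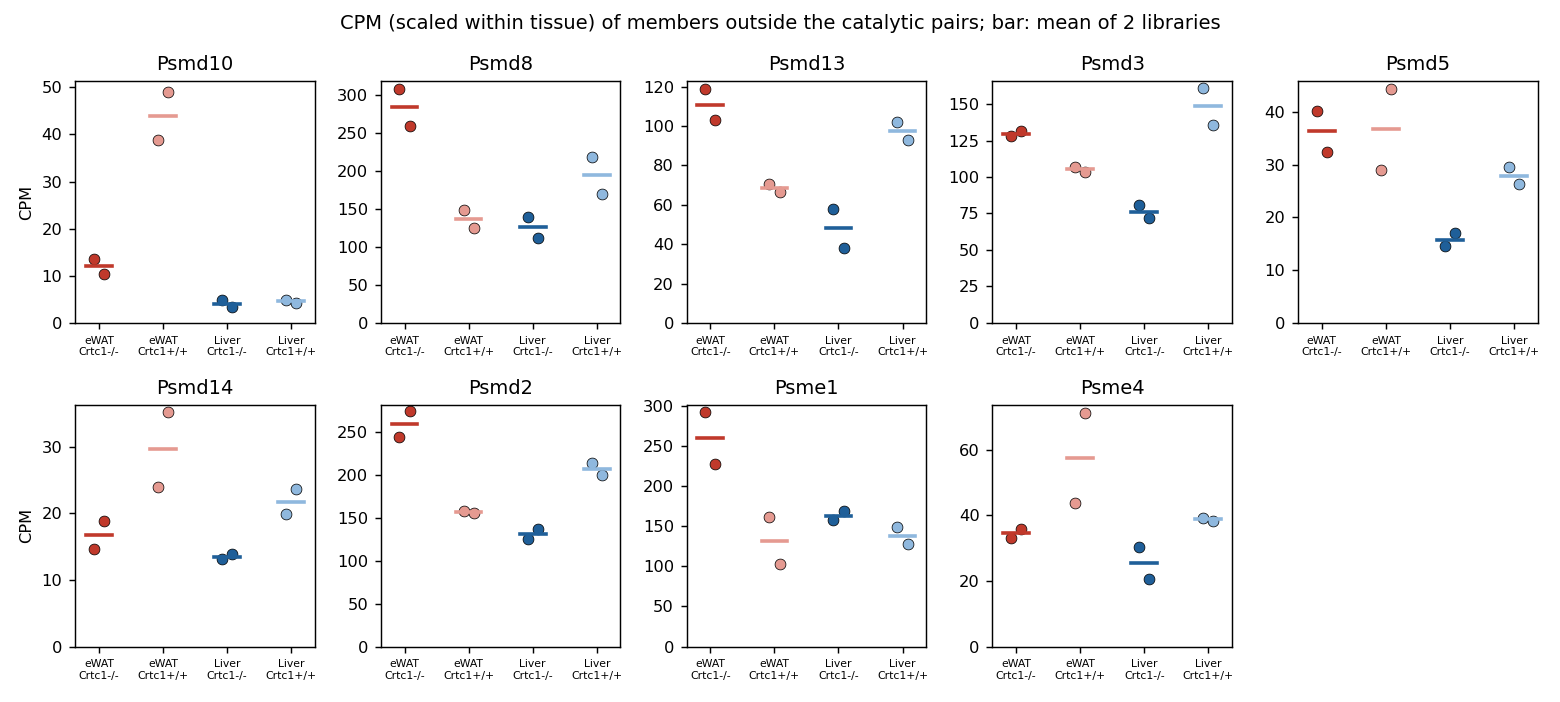
CPM scaled within tissue of the members outside the catalytic pairs with the largest differences, and of Psme1 and Psme4, with 1 point per library and a bar for the mean of 2 libraries per group; each vertical axis starts at 0. Psmd10 stands at 38.8 and 49.1 CPM in WT-labelled eWAT alone, and Psmd8, Psmd13, Psmd3 and Psmd2 have higher values under the KO label in eWAT and lower ones in liver.

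The difference between the tissues in the response to the label was tested as an interaction over all 8 libraries. Of 49 members 1 was called, Psmd10, against 6.94% of 15587 genes. In that fit its log2 fold change was 1.80 lower in eWAT than in liver (-1.80 ± 0.39, adjusted p = 0.0419). In liver Psmd10 was at 4.82 and 3.39 CPM under the KO label and at 4.88 and 4.25 CPM under the WT label (log2 fold change -0.15 ± 0.35, adjusted p = 0.849), so the groups overlapped there. Library-size scaling ended the call (adjusted p = 0.0533), as did the replicate block (0.0527) and leaving out any 1 library other than replicate 1 of KO-labelled eWAT (0.0686 to 0.15).

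The difference itself was not called for the immunoproteasome genes, with interaction values of 1.77 ± 0.46 for Psmb10 (adjusted p = 0.0641), 1.71 ± 0.64 for Psmb8 (0.146) and 1.44 ± 0.84 for Psmb9 (0.306). Several cap genes had opposite signs in the tissues, with interaction values of 1.63 ± 0.40 for Psmd13 (adjusted p = 0.0557), 1.60 ± 0.43 for Psmd8 (0.0725) and 1.31 ± 0.41 for Psmd2 (0.0993). DESeq2 called 7 members, Psmb10, Psmd2, Psmd3, Psmd4, Psmd8 and Psmd13 higher and Psmd10 lower. The share of all genes that DESeq2 called for the interaction is not given here, so the 7 cannot be set against a background. Among the 11 class I genes 2 were called, where 6.94% of all genes were. These were Tap2 (2.50 ± 0.44, adjusted p = 0.0231) and Irf1 (1.93 ± 0.39, adjusted p = 0.0350). Of the 11, 8 had values above 0 and 3 below, with Pdia3 the lowest (-1.94 ± 0.63, adjusted p = 0.109).

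Between the tissues, most members overlapped in FPKM. For 6 of 50 (Psmb1, Psmd10, Psme2, Psme2b, Psme3 and Psmg2) all 4 eWAT values exceeded all 4 liver values, where this held for 48.6% of the 19348 genes, and for 0 the reverse held, against 4.03% of all genes. Psmd10 was at 6.51 to 41.5 FPKM in eWAT and at 2.66 to 3.72 FPKM in liver. Scaling decided the sign of the fitted tissue difference. In WT-labelled libraries 38 of 49 members were called, against 54.9% of all genes, and 35 of them were lower in eWAT, against 19.8%, with a median log2 difference of -1.21, but with library-size scaling the median was 0.19 and 8 members were called, all higher. In KO-labelled libraries 14 of 49 were called, against 27.8%, all 14 lower in eWAT, against 8.89%, with a median of -0.81, but 0.27 with library-size scaling and 7 called, all higher.

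The median of all genes moved with the scaling too, from 0.61 to 2.003 with library-size scaling in WT-labelled libraries. Relative to it the members' median was 1.82 lower in WT-labelled and 1.01 lower in KO-labelled libraries, a difference that a change of scaling leaves nearly as it is by construction. Psmd10 was the exception among assembly chaperones in WT-labelled libraries, with a log2 difference of 2.05, the only one of the 7 that was higher in eWAT, although Psmg2 and Psmg4 were also called higher with library-size scaling. In KO-labelled libraries the difference for Psmd10 was 0.25 and not called, although it was called higher with library-size scaling. Epididymis and adipocyte RNA differ between the same libraries. Hepatocyte markers took 9.69% of counts in replicate 2 of KO-labelled eWAT, against 0.350% in replicate 1 and 17.9% and 21.5% in KO-labelled liver. Their median log2 difference between the tissues was -2.92 in KO-labelled and -7.08 in WT-labelled libraries. The part of hepatocyte RNA in the smaller KO-labelled difference of the members was not tested. Tissue and cell makeup cannot be told apart.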

How the data were processed

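RNA-seq was done on pieces of liver and eWAT of fasted mice, with 2 libraries for each tissue and genotype label. The authors deposited a table of estimated counts of reads per gene, not normalized, and a table of FPKM values per gene. The submitters' processing notes name HISAT, Bowtie2 and the build GRCm38.p6. The counting tool is not given in the sources used here.

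Counts were rounded and tested within each tissue with edgeR 4.0.16 (quasi-likelihood F test, TMM scaling, filterByExpr), and across all 8 libraries for the interaction and the tissue differences, and p-values were adjusted by Benjamini-Hochberg over every tested gene. Log2 fold changes are given with standard errors. Alternatives were DESeq2 1.42.0, limma 3.58.1 on quantile-normalized log2(FPKM + 1) and log2(FPKM + 0.1), other scalings and filters, a replicate block, and each library left out. The fits were also run on simulated data, with no outcome reported here, so that run does not speak for these libraries. The members and lists were chosen with earlier results of these data known.

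Values in every library were given for the catalytic, activator and inhibitor genes, for tissue-restricted members and for members that encode no proteasome protein. The 5 members with the largest fold change at an unadjusted p under 0.05 in each tissue, and called pathway genes, were named as well. The uncalled pathway genes Nfe2l1, Ddi2, Ubb, Pdia3 and Calr were named outside this rule. The separate origin of replicates rests on the series' design text. Samples of 2 per group limit the precision.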

Additional observations from a re-analysis of the deposited data

Results flagged for a closer look

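Psmd10 was set apart because its difference between the genotype labels was not the same in the 2 tissues. The log2 fold change of libraries labelled Crtc1-/- over Crtc1+/+ was -1.86 in eWAT and -0.15 in liver, each from the fit within the tissue. The interaction term of a separate fit over 8 libraries, with its own scaling, was -1.80 ± 0.39 (adjusted p = 0.0419, edgeR). It was lower in 2 of 2 eWAT libraries labelled Crtc1-/- than in both eWAT libraries labelled Crtc1+/+. The part of epididymis RNA, which moved with it in eWAT, was not tested.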

How the results depend on the processing

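With 2 libraries per group, most counts of called members moved with the setting. In eWAT the 2 members with an adjusted p under 0.05 became 9 with DESeq2 (8 higher), 4 with no expression filter, 4 with all 8 libraries in 1 fit, 4 with epididymis markers removed, 1 with upper-quartile scaling, 1 with library-size scaling, 1 with limma at either pseudocount and 0 with the replicate block. The range was 0 to 3 with 1 library left out, and it was 0 without either WT-labelled library. The 4 members past the fold rule became 1 with limma on log2(FPKM + 1), 2 with limma on log2(FPKM + 0.1), 2 with either of the other scalings, and 0 to 4 with 1 library left out (2 without WT-labelled replicate 1 and 0 without replicate 2). The members' median of 0.28 became -0.11 with limma at either pseudocount and -0.027 with library-size scaling.

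In liver the 0 called members became 2 with DESeq2, and 0 to 3 with 1 library left out. The 1 member past the fold rule became 0 with limma on log2(FPKM + 1), with a mean count of at least 50 and with either of the other scalings (upper-quartile, library-size), and 0 to 2 with 1 library left out (2 without KO-labelled replicate 1 and 0 without either WT-labelled library). The liver difference in the immunoproteasome share ranged from -0.577 without KO-labelled replicate 1 to 7.73 without KO-labelled replicate 2. The 1 interaction call became 7 with DESeq2 and 0 with library-size scaling, and 0 to 2 with 1 library left out.

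For the tissue difference in WT-labelled libraries, the 38 called members became 8 with library-size scaling and 16 to 42 with 1 library left out, with 25 and 16 without eWAT replicates 1 and 2 and 16 and 23 without liver replicates 1 and 2. The median of -1.21 became 0.19 under library-size and -1.01 under upper-quartile scaling. In KO-labelled libraries the 14 called became 23 with DESeq2, 8 with no filter and 7 with library-size scaling, and 0 to 20 with 1 library left out, with 0 without eWAT replicate 1 or liver replicate 2 and 1 without liver replicate 1. The median of -0.81 became 0.27 with library-size scaling.

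Signs turned for genes near 0 and for some with larger fitted values and wide errors. The latter included Psma8 in eWAT (log2 fold change -1.27 ± 1.53) and Psmb9 in liver (0.73 ± 0.49). In eWAT Psmb5 was at -0.079 with limma at either pseudocount (-0.0786 and -0.0791), Psmb7 at -0.15 with both and -0.0269 with library-size scaling, and Psme3 at -0.0073 and -0.0074. Psmf1 was at -0.11 with limma at either pseudocount, -0.0026 with a mean count of at least 50, -0.17 with upper-quartile scaling, -0.27 with library-size scaling, -0.0305 with all 8 libraries, and from -0.15 to 0.34 with 1 library left out. Psma8 was at 0.28 with limma on log2(FPKM + 0.1) and from -2.70 to 2.35 with 1 library left out, the highest without WT-labelled replicate 1. In liver Psmb5 was at 0.0461 with a mean count of at least 50, 0.06 with upper-quartile scaling, 0.0248 with library-size scaling and from -0.28 to 0.24 with 1 library left out. Psmb9 ranged from -0.31 (without KO-labelled replicate 1) to 1.31 (without replicate 2), and Psmd10 from -0.42 to 0.0712, without the same libraries. The cause was not tested for any of these. Over all single genes and alternatives, 536 kept direction and side of the threshold, 45 lost the call, 22 gained it and 24 turned sign.

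The replicate numbers were not treated as pairs. Correlations of same-numbered deviations were 0.0086 and 0.0516 between labels in eWAT and liver. Between the tissues they were 0.0356 under the KO label and 0.152 under the WT label. Such correlations cannot show whether libraries share a mouse. The paper took pieces of both liver and eWAT from its mice, so libraries of both tissues may share animals. The replicate block left 0 members called in eWAT (Psmb10 at an adjusted p of 0.0543 and Psmd10 at 0.0682), and for the interaction it called Psmb10 in place of Psmd10.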
